A study of Mus musculus with 25 samples.

Results

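The top of the follicle-associated epithelium (FAE) was compared with the bottom of a neighboring villus in laser-dissected mouse jejunum. All 5 libraries of the FAE top segment (FAET) were set against all 5 libraries of the villus bottom segment (VB), which together make up 10 of the 25 libraries of the study. Genes entered the comparison by their counts in all segments, with at least 3 UMIs in at least 3 of the 25 libraries, which left 9956 of the 24089 genes in the table. A UMI (unique molecular identifier) is a random tag that lets copies of 1 captured RNA molecule be counted once. Each comparison was also made without FAET repeat 1 and VB repeat 5, which carried leukocyte markers, and 9361 genes passed the same minimum in the 23 libraries left.

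The FAE is the epithelial layer that covers lymphoid follicles of the gut wall, here isolated lymphoid follicles (ILFs), which are small B cell clusters scattered along the intestine. It holds enterocytes and M cells, which carry luminal particles to the immune cells below, and it is known for releasing the chemokine Ccl20. Villus enterocytes are born in the crypts and move toward the villus tip, changing their expression on the way. Nutrient and antimicrobial programs mark the lower and middle villus, whereas apolipoproteins and cell adhesion genes mark the tip.

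Both segments came from the same wild-type male C57BL/6 mice, 3 months old and fed regular chow, with no transgene, deletion or treatment in either group. Of the 5 repeats, 1 and 2 came from mouse 1 and 3 to 5 from mouse 2, so the p-values below measure mostly the spread between dissections of 2 animals. Each library pooled the segment from at least 3 ILFs, collected over 10 consecutive tissue sections, each 10 µm thick, to 50,000 µm2 in all. In such pooled tissue, fewer cells of a type and less RNA per cell cannot be told apart.

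VB libraries held 35251 to 127874 UMIs and FAET libraries 21529 to 78224. FAET was the shallower library in all 5 repeats, with a mean of 48522 against 83084 UMIs. An exact permutation test of the 5 paired differences gave p = 0.0625, the smallest p that 5 pairs allow, and one that ignores the pairs and shuffles within mice gave p = 0.167 (both 2-sided). Of the genes tested, 984 had a UMI in every VB library and 324 in every FAET library, while 671 had none in VB and 2014 none in FAET. Among genes with at least 20 UMIs in a segment, 7.19% in VB and 12.2% in FAET had over 90% of them in 1 library, so many single genes rested on 1 dissection.

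Epithelial identity was checked with 18 pan-epithelial genes, such as Epcam and Krt8, and leukocyte content with 17 pan-leukocyte genes, such as Ptprc and Coro1a. VB repeats 1 to 4 held 55.6 to 68.3 pan-epithelial UMIs per 10,000 and 1.82 to 6.30 pan-leukocyte UMIs per 10,000. VB repeat 5 went against its label, with 3.44 pan-epithelial and 64.7 pan-leukocyte UMIs per 10,000, and it was the only VB library with no UMI of Cdh1 and Phgr1. FAET repeats 2 to 5 held 26.2 to 86.2 and 0.464 to 6.77 UMIs per 10,000 of the same lists, and FAET repeat 1 held 15.5 and 36.9. The leukocyte level of VB repeat 5 lay above the median of the ILF bottom libraries (52.2), and that of FAET repeat 1 above the median of the ILF top libraries (25.1).

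**Figure D1:**
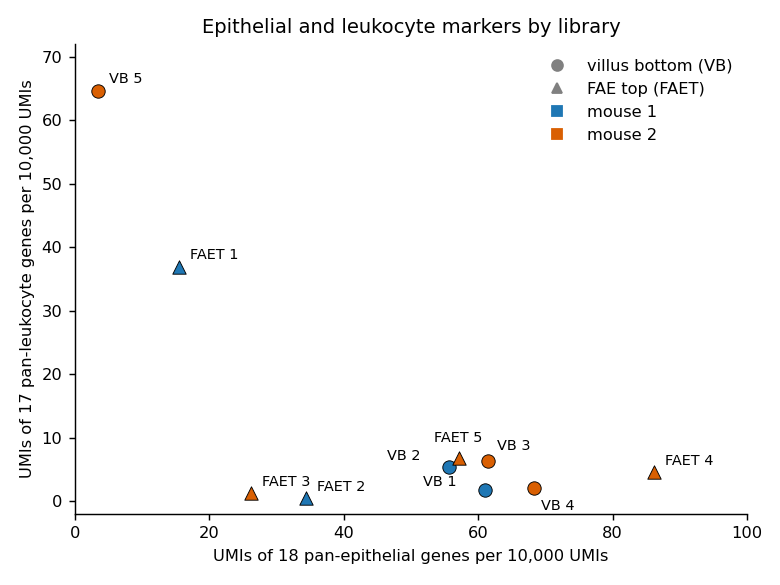
Each point is 1 library, with summed UMIs of 18 pan-epithelial genes per 10,000 on the x axis and of 17 pan-leukocyte genes per 10,000 on the y axis, circles for VB, triangles for FAET and colors for the mouse. VB 5 (3.44 and 64.7) and FAET 1 (15.5 and 36.9) stand apart from the other 8 libraries, whose leukocyte level stays at or below 6.77.

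Promoters are shown for 5 genes of the programs described below. The phosphate transporter Slc34a2 passed the test, whereas the fatty acid binding proteins Fabp1 and Fabp2, the apolipoprotein Apoa4 and the chemokine Ccl20 stand for fat absorption, the villus tip and the FAE and did not pass it. Each sequence runs from 250 bases before to 50 bases after the RefSeq start in GRCm38.p6, all on the plus strand: chr5:53049103-53049402 for Slc34a2, chr6:71199629-71199928 for Fabp1, chr3:122894822-122895121 for Fabp2, chr9:46240594-46240893 for Apoa4 and chr1:83116516-83116815 for Ccl20. Capitals mark every match, on either strand, to 6 searched motifs. TATAAA is the core of the box bound by the general transcription machinery. TTTATNG is bound by the intestinal homeobox factors Cdx1 and Cdx2, and CAAAGTTCA by the nuclear receptor HNF4. AGATAA is a letter string bound by zinc finger factors such as Gata4, CACGTG one bound by basic helix-loop-helix factors, and the kappa B motif one bound by NF-kappa B.
Slc34a2: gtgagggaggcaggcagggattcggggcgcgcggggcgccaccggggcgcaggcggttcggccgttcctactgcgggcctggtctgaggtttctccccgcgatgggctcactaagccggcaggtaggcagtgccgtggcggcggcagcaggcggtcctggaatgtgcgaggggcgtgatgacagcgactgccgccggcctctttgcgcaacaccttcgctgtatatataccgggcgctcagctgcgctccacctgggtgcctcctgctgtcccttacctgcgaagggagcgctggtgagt
Fabp1: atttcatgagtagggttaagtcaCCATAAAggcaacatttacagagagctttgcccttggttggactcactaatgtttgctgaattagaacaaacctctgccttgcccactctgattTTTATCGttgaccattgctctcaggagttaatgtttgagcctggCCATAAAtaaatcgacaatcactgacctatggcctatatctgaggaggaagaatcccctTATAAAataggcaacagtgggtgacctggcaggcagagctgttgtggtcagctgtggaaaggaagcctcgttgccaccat
Fabp2: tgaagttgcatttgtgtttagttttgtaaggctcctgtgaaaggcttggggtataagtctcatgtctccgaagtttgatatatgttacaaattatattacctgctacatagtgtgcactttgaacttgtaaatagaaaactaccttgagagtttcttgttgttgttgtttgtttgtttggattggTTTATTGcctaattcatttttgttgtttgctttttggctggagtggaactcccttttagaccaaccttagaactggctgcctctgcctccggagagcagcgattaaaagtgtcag
Apoa4: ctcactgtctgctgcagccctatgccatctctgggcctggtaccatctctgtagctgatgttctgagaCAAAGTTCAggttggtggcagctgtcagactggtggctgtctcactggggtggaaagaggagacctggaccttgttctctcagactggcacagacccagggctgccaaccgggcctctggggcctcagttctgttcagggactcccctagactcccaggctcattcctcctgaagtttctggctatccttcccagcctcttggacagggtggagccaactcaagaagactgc
Ccl20: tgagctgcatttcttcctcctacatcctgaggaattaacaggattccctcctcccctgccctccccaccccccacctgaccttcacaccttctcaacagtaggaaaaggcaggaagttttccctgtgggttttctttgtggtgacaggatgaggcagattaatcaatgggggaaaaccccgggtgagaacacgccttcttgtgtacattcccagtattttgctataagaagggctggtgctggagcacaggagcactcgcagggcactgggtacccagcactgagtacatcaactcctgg

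Of 32851 RefSeq promoters of this length, 13.6% held TATAAA, 10.9% TTTATNG, 0.39% CAAAGTTCA, 11.2% AGATAA, 7.15% CACGTG and 1.47% the kappa B motif. Fabp1 had TATAAA 30 bases before its start and TTTATNG at 133 bases on the gene's strand and at 227 and 89 bases on the opposite strand. Fabp2 had TTTATNG at 65 bases and Apoa4 had CAAAGTTCA at 182 bases before the start, both on the gene's strand. None of the 6 motifs was spelled out in the windows of Slc34a2 and Ccl20, and the matches that were found did not overlap. The RefSeq start of Slc34a2 used here lies inside the span that GENCODE gives the gene.

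Across all tested genes, more leaned toward lower levels in FAET than toward higher ones, but only the phosphate transporter Slc34a2 passed the test. In edgeR's quasi-likelihood fit of all 25 libraries, 1 of 9956 genes (0.01%) had a Benjamini-Hochberg adjusted p under 0.05. Without FAET repeat 1 and VB repeat 5 it was 2 of 9361 (0.0214%), with the DNA methyltransferase Dnmt3a joining Slc34a2, both lower in FAET. In a scaling without dominant genes, libraries were scaled by their UMIs of protein-coding genes that are not mitochondrially encoded. Genes that take 5% or more of these UMIs in any library were left out. With this scaling 3 genes were called in the 25 libraries (2 higher and 1 lower in FAET) and 11 in the 23 (9 higher and 2 lower). At an unadjusted p under 0.05, 950 genes were lower (9.54%) and 292 higher in FAET (2.93%), and in the 23 libraries 855 were lower (9.13%) and 345 higher (3.69%). Over all genes the log2 fold change had a median of -0.56 in the 25 libraries and -0.58 in the 23. Most tested genes were thus negative in these fits, so a count of negative members of a list partly restates this median. This median, beside which the list medians are set, depended on single libraries and on the tool. It was -0.04 without VB repeat 5 alone, -1.29 without FAET repeat 1 alone and -0.05 with limma-voom. In the 23 libraries it was 0.05 with DESeq2 and 0.03 with limma-voom. Since 2400 of these genes had no UMI in 1 or both of the groups, their fitted values depend on the model. With such genes set to the bound that a floor of 3 UMIs over the group allows, and genes at or under the floor in both groups left out, the median was -0.41.

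Another view asks for groups that do not overlap in UMIs per 10,000. It is not a test, and how many genes would separate by chance was not assessed. Over all 10 libraries a gene can be lower in this view only with a UMI in every VB library, which 984 genes had. It can be higher only with a UMI in every FAET library, which 324 had, so the shares of the 2 directions are not on an equal footing. Over all 10 libraries 29 genes were lower in every FAET library than in every VB library (0.291%) and 4 were higher (0.0402%). Among the former were the chloride-bicarbonate exchanger Slc26a3, the Golgi UDP-galactose carrier Slc35a2 and the complex I subunit Ndufb7. The protease Capn1 and the MHC class II loading gene H2-DMb1 were others. The 4 higher were Sh2b1 and the gene models Gm11599, Gm21738 and Gm10717. Over the 8 libraries that matched their labels 150 genes were lower (1.51%), including Slc34a2, Fabp1, Pigr, Nlrp6, Atp1b1, Mme, Gpx2 and Spink1, and 21 were higher (0.211%), including Cdh1, Pklr, Tmsb4x, Tpm3, Limk2 and Cyp1a1.

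**Figure D2:**
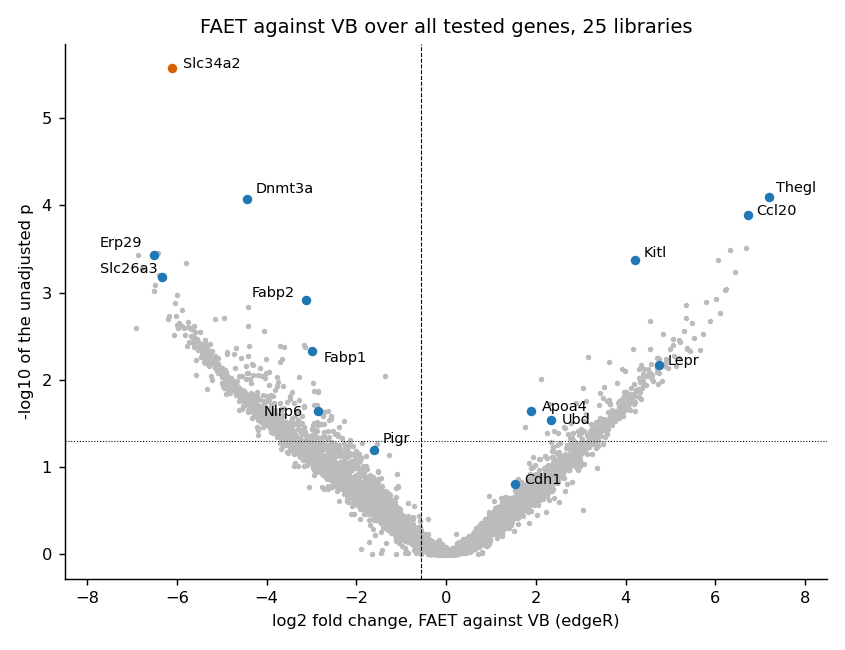
Each point is 1 of 9956 genes in the fit of 25 libraries, with the log2 fold change of FAET against VB on the x axis and -log10 of the unadjusted p on the y axis, the dotted line at the threshold of 0.05 and the dashed line at the median of -0.56. Slc34a2, in orange, is the gene with an adjusted p under 0.05, and more points lie on the lower side (950 past the dotted line) than on the higher (292).

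Slc34a2 (chr5:53038081-53071664, plus strand, GRCm38) encodes the sodium-phosphate cotransporter that takes up phosphate at the brush border. It had 14, 238, 236, 26 and 0 UMIs in VB repeats 1 to 5 and 0, 0, 0, 7 and 0 UMIs in FAET repeats 1 to 5. Apart from VB repeat 5, where epithelial markers were low, every VB library lay above every FAET library. The mean was 23.1 ± 30.9 UMIs per 10,000 in VB and 0.198 ± 0.442 in FAET (SD, n = 5 each). It fell by 6.11 on the log2 scale (SE 1.30, edgeR, adjusted p = 0.0267), and without FAET repeat 1 and VB repeat 5 by 5.94 (SE 1.31, adjusted p = 0.0276). VB repeats 2 and 3 held most of its UMIs, and the call was lost without VB repeat 2, without VB repeat 3, or without any of FAET repeats 1, 2, 3 and 5 (edgeR, adjusted p from 0.0733 to 0.422). In all 25 libraries it was also lost with DESeq2 (-6.35, adjusted p = 0.0526), with edgeR without a filter on low counts (-6.07, adjusted p = 0.0943), with the filter within FAET and VB (-6.12, adjusted p = 0.199) and with limma-voom (-4.01, adjusted p = 0.320). With the repeat as a block, it was -6.01 (edgeR, adjusted p = 0.241), and -5.18 within mouse 2 alone.

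Dnmt3a (chr12:3806007-3914443, plus strand), which sets new DNA methylation, had 2, 4, 22, 1324 and 25 UMIs in VB and 14, 0, 1, 25 and 1 UMIs in FAET. Nearly all of its VB signal came from VB repeat 4, and the groups overlapped. Its log2 fold change was -4.45 in all libraries (SE 1.13, edgeR, adjusted p = 0.277) and -5.24 without the 2 leukocyte-marked libraries (adjusted p = 0.0276). Leaving out VB repeat 4 from the fit of all libraries brought it to -0.29 (edgeR, adjusted p = 0.999), and with the repeat as a block the adjusted p in the 23 libraries was 0.654. Within mouse 1 it was 0.31 and within mouse 2 it was -5.39.

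Most genes of fat absorption had negative log2 fold changes, and none of them passed the test. Fabp1 (chr6:71199827-71205023, plus strand), which binds fatty acids in the enterocyte cytoplasm, had 252, 38, 74, 265 and 0 UMIs in VB and 6, 0, 16, 32 and 9 in FAET. Its partner Fabp2 (chr3:122895072-122899506, plus strand) had 340, 24, 51, 962 and 1 UMIs in VB and 18, 0, 6, 108 and 7 in FAET. Both were lower in FAET in 4 of 5 repeats, the exception being repeat 5, whose VB library was low in epithelial markers. Fabp1 averaged 15.5 ± 11.5 UMIs per 10,000 in VB and 2.80 ± 2.84 in FAET (SD, n = 5), a log2 fold change of -2.98 (SE 1.05, edgeR, unadjusted p = 0.00472, adjusted p = 0.345). For Fabp2 the means were 31.2 ± 44.8 and 4.31 ± 6.20 UMIs per 10,000, and the log2 fold change was -3.13 (SE 0.97, edgeR, unadjusted p = 0.00122, adjusted p = 0.345). VB repeat 4 held most of the Fabp2 UMIs, and without it the value was -0.86 (edgeR, adjusted p = 0.863), while without FAET repeat 4 it was -5.11 (edgeR, adjusted p = 0.0695). Mogat2, which rebuilds triglycerides from absorbed monoglycerides, stood at -2.80 on the same scale (SE 1.31, edgeR, adjusted p = 0.369).

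Of 14 tested genes of lipid uptake and esterification, 13 had a negative log2 fold change and 3 of these an unadjusted p under 0.05, against 1 positive. The median was -1.52, beside -0.56 over all genes, and -1.90 without the 2 libraries. Below the median of all genes lay 11, and 3 lay above. The 3 with such a p are 21.4% of the list, beside 9.54% of all genes lower at that p. Summed over the list, VB repeats 1 to 5 had 77.3, 27.5, 44.1, 160 and 0.782 UMIs per 10,000 and FAET repeats had 6.78, 10.2, 25.7, 29.2 and 17.4. Fabp1 and Fabp2 made up most of the sum in VB repeats 1 to 4. The VB repeat 5 library was the lowest of all 10, and FAET repeat 4 was above VB repeat 2, so the groups overlapped also among the other 8.

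**Figure D3:**
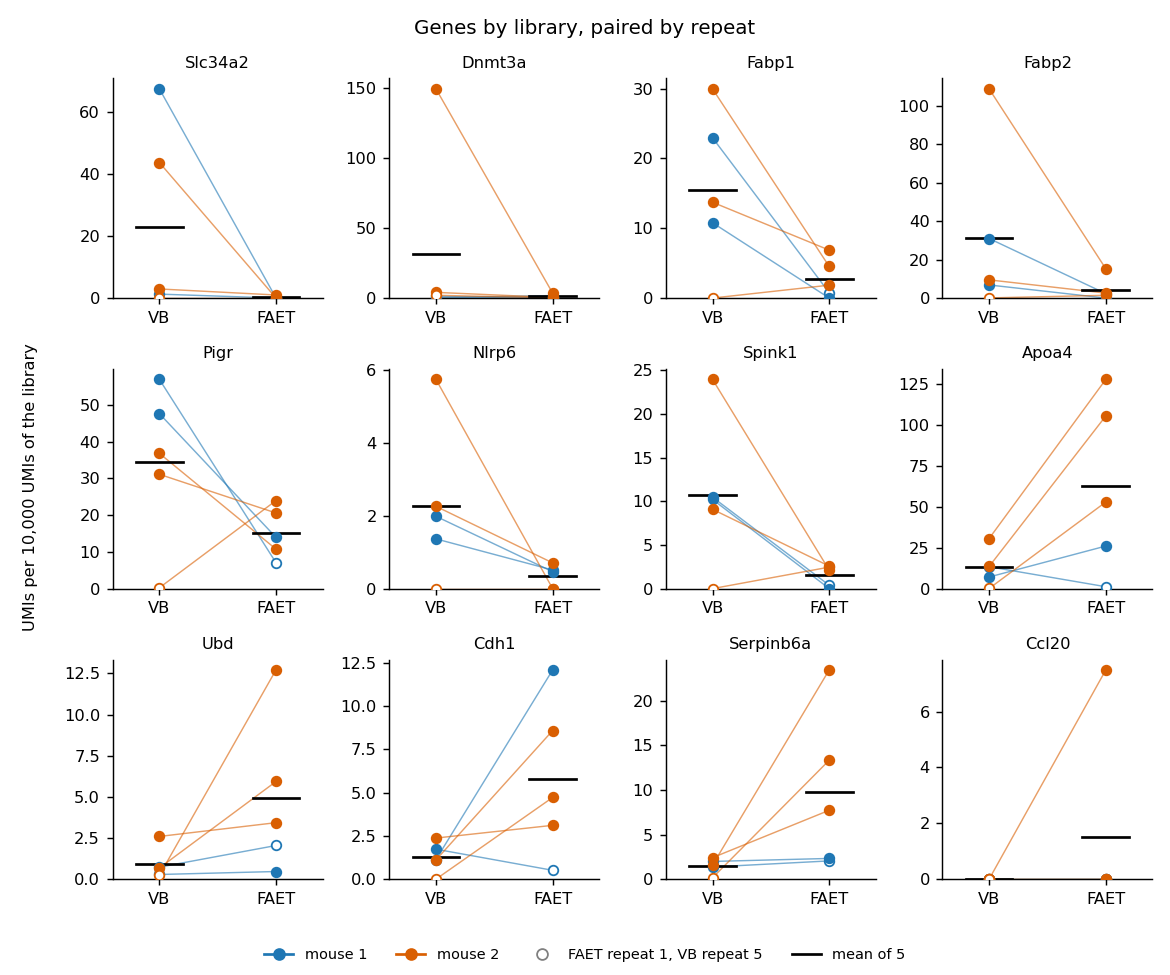
UMIs per 10,000 of the library for 12 genes, with VB and FAET of 1 repeat joined by a line, blue for mouse 1, orange for mouse 2, open symbols for FAET repeat 1 and VB repeat 5, and black bars for the mean of 5 libraries. Slc34a2, Fabp1, Nlrp6 and Spink1 are lower in FAET in 4 of 5 repeats, Ubd and Serpinb6a are higher in 5 of 5, and Ccl20 has UMIs in FAET repeat 4 only.

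Carriers for sugars, amino acids, ions and vitamins followed the same side for most members, with exceptions. Slc2a2, the glucose and fructose exit route of the enterocyte, had 18, 11, 20, 31 and 0 UMIs in VB and 0, 0, 0, 20 and 1 in FAET. It was at -1.66 on the log2 scale (SE 1.22, edgeR, adjusted p = 0.577). The amino acid carriers Slc7a7 and Slc7a9 were at -1.42 and -1.86 (edgeR, adjusted p = 0.741 and 0.600), and in FAET nearly all of their UMIs were in repeat 4. Slc26a3 had 19, 2, 4, 14 and 1 UMIs in VB and 0 in all FAET libraries, at least 7.79-fold lower as a share of pooled UMIs with a floor of 3 UMIs over the group (edgeR, unadjusted p = 0.00066, adjusted p = 0.345). The folate carrier Slc46a1 had 4 and 10 UMIs in VB repeats 2 and 4 and none in the other VB libraries or in FAET, at least 2.73-fold lower on the same measure.

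Of 18 tested brush border nutrient transporters 11 had a negative value, 5 of them with an unadjusted p under 0.05, and 7 a positive one, with a median of -1.13. Summed, they had 25.6, 99.6, 65.4, 44.4 and 1.25 UMIs per 10,000 in VB and 1.92, 19.5, 15.9, 27.0 and 15.0 in FAET. The called gene Slc34a2 is in this list and held 67.5 of the summed UMIs per 10,000 in VB repeat 2 and 43.7 in VB repeat 3. The 5 with such a p, Slc34a2 among them, are 27.8% of the list, beside 9.54% of all genes lower at that p. Against the median of all genes 11 of the 18 lay below and 7 above. All solute carriers together, a list the study used, leaned less: 111 of 166 were negative and 55 positive. Against the median of all genes 92 lay below and 74 above. At an unadjusted p under 0.05, 25 were lower (15.1%, beside 9.54% of all genes) and 7 higher (4.22%, beside 2.93%). The list had a median of -0.78. With genes at 0 in a group set to their bound, that median was -0.46, close to the -0.41 of all genes.

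Atp1b1, a beta subunit of the sodium-potassium pump that drives many of these carriers, had 80, 29, 35, 79 and 2 UMIs in VB and 3, 1, 0, 31 and 21 in FAET. In UMIs per 10,000, every VB library but repeat 5 lay above every FAET library. The means were 6.22 ± 3.51 and 1.91 ± 2.23 UMIs per 10,000 (SD, n = 5), and the log2 fold change was -1.76 (SE 1.09, edgeR, adjusted p = 0.481).

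Brush border enzymes are given by class, and the classes were not tested against each other. Among 12 peptidases, which trim food peptides, 11 were negative and none reached an unadjusted p under 0.05, with a median of -1.31, and neprilysin (Mme) had 24, 9, 7, 13 and 0 UMIs in VB and 6, 0, 0, 5 and 0 in FAET. The peptidases summed to 61.5 ± 39.7 UMIs per 10,000 in VB and 35.9 ± 20.9 in FAET (SD, n = 5). Of 5 disaccharidases, which split sugars, 4 were negative, with a median of -0.60, and they summed to 23.9 ± 17.2 UMIs per 10,000 in VB and 26.7 ± 16.9 in FAET (SD, n = 5). Sucrase-isomaltase (Sis) was at -0.60 (SE 0.99, edgeR, adjusted p = 0.888), with 9.61 ± 5.98 UMIs per 10,000 in VB and 9.44 ± 5.94 in FAET. Lactase (Lct) was at -1.29 (SE 1.08, edgeR, adjusted p = 0.651). Structural genes of the microvilli had a median of -0.44 over 11 genes, 9 of them negative. Among them Myo1a, the motor that ties the actin core to the membrane, was at -1.27 (SE 1.04, edgeR, adjusted p = 0.639). Below the median of all genes lay 10 of the 12 peptidases, 3 of the 5 disaccharidases and 5 of the 11 structural genes.

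**Figure D4:**
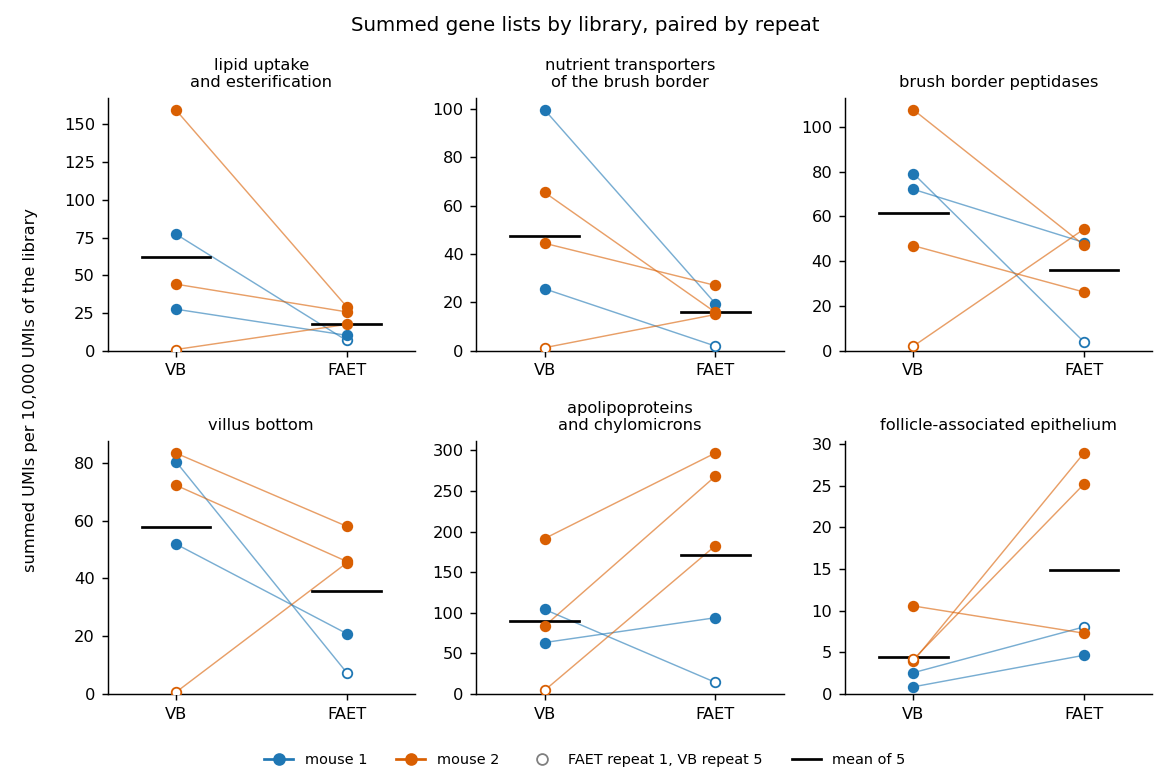
Summed UMIs per 10,000 of 6 gene lists in each library, VB and FAET of 1 repeat joined by a line, blue for mouse 1, orange for mouse 2, open symbols for FAET repeat 1 and VB repeat 5, black bars for the mean of 5. Lipid uptake, nutrient transporters, peptidases and the villus bottom list are lower in FAET in 4 of 5 repeats, and apolipoproteins and the FAE list are higher in 4 of 5.

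The log2 fold changes of lipoprotein genes had no common sign. Apoa4 (chr9:46240696-46243459, plus strand), an apolipoprotein of chylomicrons that is highest toward the villus tip, had 147, 25, 73, 271 and 1 UMIs in VB and 9, 56, 246, 905 and 258 in FAET. FAET was higher in 4 of 5 repeats, with repeat 1 the exception. The means were 12.9 ± 11.3 UMIs per 10,000 in VB and 62.7 ± 53.2 in FAET (SD, n = 5), a log2 fold change of 1.88 (SE 0.83, edgeR, unadjusted p = 0.0224, adjusted p = 0.362) and 1.98 without the 2 libraries. Within mouse 2 it was 2.32 and within mouse 1 it was -0.20, a difference that was not tested. Apoa1 was at 0.11 (SE 0.76, edgeR, adjusted p = 1), and this sign turned in 5 alternatives, while Apoc3 was at 0.95 (SE 0.97, edgeR, adjusted p = 0.745). The microsomal transfer protein Mttp, which loads lipid onto apolipoprotein B, was at -1.47 (SE 1.07, edgeR, adjusted p = 0.570).

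Of 10 apolipoprotein and chylomicron genes 5 were positive and 5 negative, with a median of 0.03. Against the median of all genes 7 of them lay above and 3 below. Their sum was 104, 63.3, 83.6, 191 and 4.38 UMIs per 10,000 in VB and 14.2, 93.8, 268, 297 and 183 in FAET, and Apoa1 and Apoa4 made up most of it.

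Genes of villus height separated in part. Of 15 villus bottom genes 14 were negative, 7 with an unadjusted p under 0.05. The median was -2.14, or -1.39 with genes at 0 in a group set to their bound. Those 7 are 46.7% of the list, beside 9.54% of all genes lower at that p. They include Lypd8, which is also in the enterocyte defence list below. The study showed Lypd8 as lower at the FAE top from these same libraries, so it is no separate support. Against the median of all genes 12 lay below and 3 above. Spink1, a secreted trypsin inhibitor, had 115, 36, 49, 212 and 0 UMIs in VB and 3, 0, 6, 15 and 12 in FAET, a log2 fold change of -3.15 (SE 1.10, edgeR, unadjusted p = 0.00416, adjusted p = 0.345). Gpx2, a glutathione peroxidase of the gut epithelium, had 33, 9, 12, 5 and 0 UMIs in VB and 5, 0, 0, 0 and 0 in FAET, with -3.70 in all libraries and -7.29 without FAET repeat 1 and VB repeat 5 (edgeR, adjusted p = 0.345 and 0.254). The summed villus bottom list was 57.7 ± 34.2 UMIs per 10,000 in VB and 35.5 ± 20.7 in FAET (SD, n = 5).

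Of 9 tested villus tip genes that the study names, taking the tip program from earlier work, 6 were positive, with a median of 0.48. Of these, 2 had an unadjusted p under 0.05 (22.2% of the list, beside 2.93% of all genes higher). Against the median of all genes 7 of the 9 lay above and 2 below. The study called Cdh1, Cdkn1a, Apoa1 and Apoa4 higher at the FAE top partly from these same libraries. Positive signs of those genes here are therefore no separate support. Cdh1, the adhesion protein E-cadherin, had 19, 4, 6, 21 and 0 UMIs in VB and 4, 26, 20, 22 and 23 in FAET. It was higher in FAET in 4 of 5 repeats, with a log2 fold change of 1.55 (SE 1.09, edgeR, adjusted p = 0.558). The adenosine deaminase Ada had 0, 0, 0, 1 and 0 UMIs in VB and 0, 2, 1, 8 and 0 in FAET (3.50, SE 1.62, edgeR, adjusted p = 0.369). The purine nucleoside carrier Slc28a2 had 3 UMIs in VB and none in FAET, and the ectonucleotidase Nt5e, with 1 UMI in VB and 8 in FAET repeat 1, was under the minimum. The other 14 villus tip genes were split 7 to 7 around 0, with a median of 0.26. Against the median of all genes 13 of them lay above and 1 below.

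Immediate early and stress genes of the tip program were sparse. Fos had 13 UMIs in VB and 2 in FAET, Jun 2 and 3, and Klf4, which halts cell division, 36 and 25. Their log2 fold changes were -2.05 for Fos, 0.69 for Jun and -0.48 for Klf4, and the cell cycle inhibitor Cdkn1a was at 0.48 (SE 1.10, edgeR, adjusted p = 0.943). The values of Jun, Klf4 and Cdkn1a changed sign in at least 1 alternative.

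Genes that guard the epithelial surface had negative log2 fold changes for most members, as did most of all tested genes, and none passed the test. Pigr, which carries immunoglobulin A across the enterocyte, had 626, 168, 168, 326 and 3 UMIs in VB and 55, 30, 48, 76 and 117 in FAET, so that every VB library but repeat 5 lay above every FAET library in UMIs per 10,000. The means were 34.6 ± 21.6 and 15.3 ± 6.98 UMIs per 10,000 (SD, n = 5), and the log2 fold change was -1.60 (SE 0.87, edgeR, unadjusted p = 0.0636, adjusted p = 0.420). Nlrp6, an inflammasome sensor of enterocytes, had 15, 7, 31, 20 and 0 UMIs in VB and 4, 1, 0, 5 and 0 in FAET. It was at -2.85 (SE 1.25, edgeR, unadjusted p = 0.0226, adjusted p = 0.362).

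Lypd8, which keeps flagellated bacteria off the epithelium, had 91, 7, 40, 69 and 0 UMIs in VB and 7, 0, 0, 42 and 2 in FAET, a log2 fold change of -2.14 (SE 1.08, edgeR, adjusted p = 0.397). The bactericidal lectin Reg3g had 115, 66, 98, 129 and 2 UMIs in VB and 5, 31, 49, 86 and 119 in FAET. Its value was -0.18 (SE 0.91, edgeR, adjusted p = 0.997) and turned positive in 7 alternatives, among them both other scalings. Ccl25, which draws lymphocytes to the small intestine, was at -0.81 (SE 1.10, edgeR, adjusted p = 0.845), and at 0.32 within mouse 2.

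Over the 15 genes of enterocyte defence, some of which the study chose from these samples, 11 were negative, with a median of -0.94. Of these, 3 had an unadjusted p under 0.05 (20% of the list, beside 9.54% of all genes lower). Against the median of all genes 9 lay below and 6 above. Goblet cell genes had a median of -1.14, with 7 of 9 negative, 6 below the median of all genes and 3 above it. The mucin Muc2 had 36, 9, 31, 43 and 0 UMIs in VB and 0, 0, 17, 32 and 0 in FAET (-1.14, SE 1.12, edgeR, adjusted p = 0.728), and the mucus stabilizer Tff3 was at -1.86 (SE 1.12, edgeR, adjusted p = 0.468). Guanylin (Guca2a) was the other way, at 1.21 (SE 1.00, edgeR, adjusted p = 0.642). Summed goblet levels were 28.2 ± 17.4 and 26.4 ± 18.1 UMIs per 10,000 (SD, n = 5). The 3 tested enteroendocrine genes, Chgb, Sct and Reg4, had 8, 8 and 7 UMIs in VB and none in FAET. All UMIs of Chgb and Reg4 were in VB repeat 4, while Sct had 4, 1 and 3 UMIs in VB repeats 1, 2 and 4, and no direction is read from these counts.

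Genes of the FAE and of M cells leaned the other way. Ccl20 (chr1:83116766-83119167, plus strand), which draws B cells and dendritic cells to the FAE, had no UMI in any VB library and 53 UMIs in FAET, all of them in repeat 4. As a share of pooled UMIs this was at least 30.3-fold higher (edgeR, unadjusted p = 0.000129, adjusted p = 0.322), while the other 4 FAET libraries had none. Ubd, a ubiquitin-like protein induced by inflammatory cytokines, was spread more evenly, with 8, 1, 14, 6 and 3 UMIs in VB and 16, 1, 8, 42 and 62 in FAET. It was higher in FAET in 5 of 5 repeats, with means of 0.904 ± 0.971 and 4.92 ± 4.80 UMIs per 10,000 (SD, n = 5) and a log2 fold change of 2.34 (SE 1.07, edgeR, unadjusted p = 0.0288, adjusted p = 0.369).

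The protease inhibitor Serpinb6a had 15, 7, 13, 14 and 2 UMIs in VB and 16, 5, 18, 166 and 65 in FAET. It was also higher in 5 of 5 repeats, narrowly so in repeats 1 and 2, and its log2 fold change of 2.25 (SE 1.10, edgeR, adjusted p = 0.380) was 3.34 within mouse 2 and -0.10 within mouse 1. Anxa5, named by the study as an M cell marker, had 18 and 14 UMIs in VB repeats 3 and 5 and 14, 13 and 16 in FAET repeats 1, 4 and 5, with none elsewhere (0.92, SE 1.16, edgeR, adjusted p = 0.823). Tnfaip2, a gene of M cell protrusions, had 1 UMI in VB and 6 and 5 in FAET repeats 1 and 4.

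Of 12 FAE genes 9 were positive and 2 of these had an unadjusted p under 0.05, with a median of 1.16, and 1.77 without the 2 libraries. Summed, they had 2.55, 0.851, 10.6, 3.96 and 4.14 UMIs per 10,000 in VB and 8.05, 4.64, 7.29, 29.0 and 25.2 in FAET. Of 32 tested genes of the study's M cell list 26 were positive, 5 with an unadjusted p under 0.05, and the median was 1.01. Those 5 are 15.6% of the list and the 2 FAE genes 16.7% of theirs, beside 2.93% of all genes higher at that p. Ccl20 is in both lists and is counted in both shares, so the 2 shares are not separate. All UMIs of Ccl20, and the 6 of Stx11, another of the 5, were in FAET repeat 4 among the FAET and VB libraries. The summed M cell list reached 8.74 to 42.4 UMIs per 10,000 in VB repeats 1 to 4 and 15.3 to 86.3 in FAET repeats 2 to 5. In the leukocyte-marked libraries it reached 93.3 (VB repeat 5) and 145 (FAET repeat 1), the highest of each segment, and the part of leukocytes in this list's level was not tested.

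**Figure D5:**
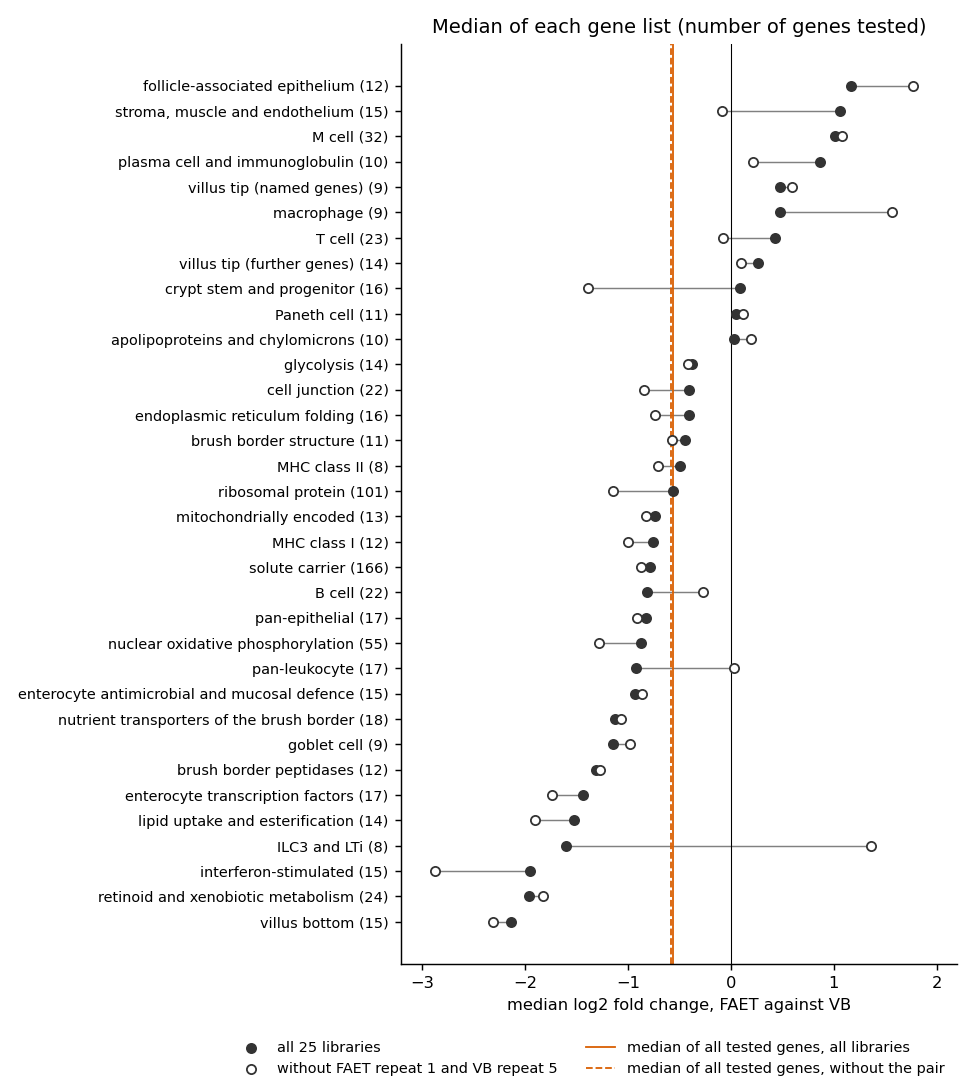
Median log2 fold change of FAET against VB for each list with at least 8 tested genes, closed symbols for the fit of 25 libraries and open symbols for the fit without FAET repeat 1 and VB repeat 5, with the median of all genes as orange lines (-0.56 and -0.58). The FAE (1.16) and M cell (1.01) lists lie above 0 in both fits and the villus bottom list (-2.14) is the lowest in the fit of 25, while the pan-leukocyte, T cell, ILC3, crypt and stroma medians change sign between the fits.

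Metabolic and interferon lists were negative for most members. Of 24 genes of retinoid and xenobiotic metabolism 22 were negative, 7 with an unadjusted p under 0.05, with a median of -1.96 (-1.34 with genes at 0 set to their bound). The glucuronosyltransferase Ugt2b34 had 32, 5, 11, 10 and 0 UMIs in VB and 1, 0, 0, 1 and 0 in FAET (-4.40, SE 1.53, edgeR, adjusted p = 0.345). The summed list differed little, at 37.8 ± 27.4 and 30.5 ± 18.9 UMIs per 10,000 (SD, n = 5). Of 15 interferon-stimulated genes 11 were negative, 3 with an unadjusted p under 0.05, with a median of -1.95. Their sum was 9.54 ± 8.78 in VB and 4.80 ± 4.27 in FAET on the same scale. The genes with such a p are 29.2% of the retinoid and xenobiotic list and 20% of the interferon list, beside 9.54% of all genes lower. Below the median of all genes lay 20 of the 24 and 11 of the 15.

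All 13 tested mitochondrially encoded genes were negative, with a median of -0.74, and 9 lay below the median of all genes and 4 above. The complex I subunit mt-Nd4l had 4188, 1712, 2074, 3355 and 1519 UMIs in VB and 1429, 441, 479, 1223 and 640 in FAET. It averaged 350 ± 137 and 179 ± 30.4 UMIs per 10,000 (SD, n = 5), a log2 fold change of -1.36 (SE 0.52, edgeR, unadjusted p = 0.00900, adjusted p = 0.345). The whole mitochondrial share was 1836 ± 716 and 1724 ± 784 UMIs per 10,000, and exact permutation tests gave p = 0.850 within mice and p = 0.750 for the 5 paired differences. Of 55 nuclear genes of oxidative phosphorylation 47 were negative, 8 with an unadjusted p under 0.05, with a median of -0.87. Those 8 are 14.5% of the list, beside 9.54% of all genes lower at that p, and against the median of all genes 34 of the 55 lay below and 21 above. Ndufb7 had 21, 6, 22, 26 and 16 UMIs in VB and 3, 0, 0, 3 and 0 in FAET, without overlap, at -3.71 (SE 1.29, edgeR, adjusted p = 0.345).

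Ribosomal protein genes had a median of -0.56, equal to that of all genes, and -1.15 without the 2 libraries. In that fit 18 of 101 were lower at an unadjusted p under 0.05, beside 9.13% of all genes. The summed ribosomal level followed the leukocyte markers. It was 874 UMIs per 10,000 in VB repeat 5 and 721 in FAET repeat 1 against 61.3 to 263 in the other 8 libraries. Glycolysis genes had a median of -0.38 over 14 genes, and the liver type pyruvate kinase Pklr was positive among them, with 7, 1, 1, 4 and 0 UMIs in VB and 1, 9, 2, 15 and 25 in FAET (2.66, SE 1.27, edgeR, adjusted p = 0.379).

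Of 17 enterocyte transcription factors 14 were negative, 3 with an unadjusted p under 0.05 and none past the adjusted threshold, with a median of -1.44, or -0.92 with genes at 0 in a group set to their bound. Against the median of all genes 10 lay below and 7 above, and the 3 are 17.6% of the list, beside 9.54% of all genes lower. Elf3, a factor of epithelial differentiation, had 7, 8, 2, 0 and 0 UMIs in VB and none in FAET, at least 3.31-fold lower (edgeR, unadjusted p = 0.00383, adjusted p = 0.345). Gata4, which sets jejunal identity, had 3, 0, 5, 5 and 0 UMIs in VB and none in FAET, at least 2.53-fold lower (edgeR, adjusted p = 0.345). As a whole the 17 tested pan-epithelial genes had a median of -0.83, with 13 negative, and their sums among the 8 other libraries overlapped between the groups.

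Immune and stromal lists depended on the 2 libraries. The pan-leukocyte median was -0.92 with them and 0.03 without, the T cell median 0.43 and -0.08, and that of stroma, muscle and endothelium 1.05 and -0.09. Macrophage lysozyme Lyz2 had 174 UMIs in VB repeat 5 and 142 in FAET repeat 1, and otherwise 6 and 3 UMIs in FAET repeats 4 and 5. Immunoglobulin and plasma cell genes were the immune list whose sum was higher in FAET in 5 of 5 repeats, with 15.7, 2.84, 1.85, 4.86 and 18.1 UMIs per 10,000 in VB and 68.5, 7.90, 11.6, 17.5 and 38.6 in FAET. The heavy chain of immunoglobulin A, Igha, had 154, 10, 10, 27 and 87 UMIs in VB and 469, 17, 0, 109 and 182 in FAET, a log2 fold change of 1.76 (SE 0.83, edgeR, unadjusted p = 0.0347, adjusted p = 0.376) and 1.34 without the 2 libraries.

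Lepr, the leptin receptor, which the study followed as a gene of telocytes (stromal cells that line the epithelium from below), had no UMI in VB and 3, 2, 1, 0 and 3 UMIs in FAET. It was present in 4 of 5 FAET libraries at these low counts, at least 5.14-fold higher as a share of pooled UMIs (edgeR, unadjusted p = 0.00675, adjusted p = 0.345). The study picked Lepr among telocyte genes for its elevation at the FAE top in these same libraries, and then imaged it in tissue. The values of Lepr here are therefore no separate support. Of 4 tested telocyte and BMP genes 2 were positive and 2 negative. Their median was -0.39, or 0.28 with genes at 0 in a group set to their bound. Sox6 (8 UMIs in VB and 0 in FAET) and Pdgfra (9 and 2) were lower, and Bmp4 (2 and 5) was higher. The stem cell gene Lgr5, which also marks telocytes of the villus tip, had 11, 2, 5, 5 and 14 UMIs in VB and 8, 7, 3, 10 and 2 in FAET (0.34, SE 1.18, edgeR, adjusted p = 0.979). Kitl, the ligand of the receptor Kit, had 4, 0, 0, 3 and 3 UMIs in VB and 3, 33, 53, 0 and 0 in FAET. Its log2 fold change was 4.20 (SE 1.19, edgeR, unadjusted p = 0.000426, adjusted p = 0.345), and it was named after its values were seen, since it passed the adjusted threshold when libraries were scaled without dominant genes.

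By the rule for smallest p with the same direction in at least 4 of 5 repeats, which fixes their sign, 12 genes were taken on each side. Beyond those above, the lower set held the endoplasmic reticulum protein Erp29 (7, 0, 23, 4 and 27 UMIs in VB and none in FAET, at least 11.9-fold lower), the peptidase Xpnpep1 (97 UMIs in VB, 4 in FAET), the purine enzyme Pnp (72 and 6), the reductase Cyb5r3 (117 and 9), the proteasome subunit Psmd7 (50 and 1) and Atraid (62 and 1). The higher set held Adck4, of coenzyme Q synthesis (2 UMIs in VB, 58 in FAET), the matrix protein Tgfbi (17 and 84), the cohesin regulator Pds5a (9 and 54), the nuclear envelope protein Tor1aip1 (27 and 78), Slc35g1 (17 and 81) and the gene models Gm10801 (98 and 378) and Gm43291 (389 and 1146). The edgeR adjusted p of these 13 genes in the fit of 25 libraries was 0.345 to 0.379. Gm43291 (chr6:70719074-70740554, plus strand) was highest in the leukocyte-marked library of each segment, at 19.1 UMIs per 10,000 in VB repeat 5 and 87.6 in FAET repeat 1. Some totals rested on few libraries. Adck4 had 20, 35, 1, 1 and 1 UMIs in FAET, Pds5a had 16, 28, 8, 2 and 0 in FAET, and Atraid had 3, 40, 13, 6 and 0 in VB.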

How the data were processed

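RNA of 5 laser-dissected segments was measured in 5 repeats from 2 mice. Values were deposited by the authors as whole-number UMI counts per gene and library, without normalization. Per the labels and the study's methods, reads were converted with bcl2fastq 2.15.0.4, aligned to GRCm38 (Ensembl 84) with STAR in zUMIs (versions not given in the sources used here) and sequenced on an Illumina NextSeq. The labels name a SMART-seq kit beside SCRB-seq, while the methods name mcSCRB-seq, so the whole numbers were read as UMIs. Whether counting used strand is not given in the sources used here, so overlapping genes on opposite strands, such as Serpinb6a with Ripk1 (21 UMIs in VB and 3 in FAET), may share UMIs.

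Counts were fitted with edgeR 4.0.16 in R 4.3.3 (TMM, quasi-likelihood, terms for segment and mouse, all 25 libraries, Benjamini-Hochberg adjustment over all genes tested). Genes had to reach 3 UMIs in 3 or more libraries. Fold changes are FAET against VB. Library values were compared with 2-sided exact permutation tests within mice (120 arrangements) and, for depth and mitochondrial share, of paired differences, added after the data were seen. Levels are UMIs per 10,000 of the library's total, and their SD covers counting error as well as differences between dissections. Fold bounds use a floor of 3 UMIs over a group and cover counting error only. No pair of replicates agreed within sampling noise (lowest chi-square per degree of freedom 6.70), so none was merged.

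The members, gene lists and tests were chosen with earlier results of these data known. Named genes were those the study names for the epithelium, those called, up to 12 in each direction with the smallest p, a mean of 10 UMIs in the higher group and the same direction in 4 of 5 repeats, and, per list, up to 4 genes of lowest p. Repeat numbers pair libraries by design, since 1 number marks 1 animal and set of sections. Deviations of same-numbered FAET and VB libraries correlated at -0.056 to 0.18 over genes (mean 0.042, 5 pairs). Alternatives used DESeq2 1.42.0 and limma 3.58.1 (voom), other scalings and filters, a repeat block, single mice and left-out libraries. The code was tested on simulated data. Gene positions are from GENCODE M21 and promoters from RefSeq, both of GRCm38. An item and a list that held it are not reported here.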

Additional observations from a re-analysis of the deposited data

Results flagged for a closer look

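Values listed here come from a library that lay far from the other 4 of its segment (Dixon's gap against the range). Chance alone flags about 1 in 20 groups, and 20 of 88 groups of library and list values and 26 of 94 groups of named genes were reached. Among summed lists, in UMIs per 10,000, VB repeat 5 was the lowest VB library for pan-epithelial genes (3.44) and enterocyte transcription factors (2.50). It was the highest for pan-leukocyte (64.7), B cell (94.9), ribosomal protein (874), macrophage (23.4), ILC3 and LTi (13.6), MHC class II (144), tuft cell (1.72) and stromal genes (13.7). FAET repeat 1 was the highest FAET library for pan-leukocyte (36.9), ribosomal protein (721), macrophage (35.2), dendritic cell (2.94), ILC3 and LTi (6.90), tuft cell (1.28) and stromal genes (28.9). FAET repeat 3 stood out for nuclear oxidative phosphorylation (138). Erythrocyte genes stood out in VB repeat 1 (0.637) and FAET repeat 5 (0.205).

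Among single genes in FAET, repeat 4 was apart for Fabp2 (15.3 UMIs per 10,000), Lypd8 (5.93), Slc2a2 (2.83), Slc7a7 (1.27), Slc7a9 (0.989), Slc34a2 (0.989), Xpnpep1 (0.565), Jun (0.424) and Psmd7 (0.141), all as the highest library. The highest FAET library was repeat 1 for Nt5e (1.02), Pnp (0.767) and Atraid (0.128), repeat 2 for Adck4 (16.3) and Pds5a (13.0), repeat 3 for Slc35g1 (18.01) and repeat 5 for Cyb5r3 (1.85). In VB, repeat 4 was the highest for Dnmt3a (150 UMIs per 10,000), Fabp2 (109), Jun (0.226) and Ada (0.113). Repeat 3 was the highest VB library for Ubd (2.59) and Slc35g1 (2.22), repeat 2 for Atraid (11.3), and repeat 5 for Adck4 (0.156) and Nt5e (0.0782). VB repeat 5 was the lowest VB library for Atp1b1 (0.156). Several of these genes had only a few UMIs in the segment.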

How the results depend on the processing

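Counts of called genes were small throughout and depended on single libraries. In all libraries, where 1 gene was called, a replicate block gave 0 calls (852 genes at an unadjusted p under 0.05), the filter within FAET and VB 0 (319), limma-voom 0 (548), mouse 1 only 0 (242), mouse 2 only 0 (678), DESeq2 2 (Bloc1s6 and Rnf141), scaling without dominant genes 3 (Slc34a2, Kitl and Thegl) and no term for the mouse 3 (Slc34a2, Dnmt3a and Slc2a3). Without a filter on low counts the 1 call was Gm1045 in place of Slc34a2. Genes in brackets were named after their values were seen. Leaving out 1 library gave 0 to 3 calls, with 0 without FAET repeat 1, 2, 3 or 5 or VB repeat 2 or 3. Without FAET repeat 1 and VB repeat 5, where 2 genes were called, the replicate block gave 0 (649), the filter within FAET and VB 0 (276), mouse 1 only 0 (100), mouse 2 only 1, DESeq2 1, no filter on low counts 1, RLE size factors 4, FAET and VB libraries only 4, limma-voom 8 and scaling without dominant genes 11. Leaving out 1 further library gave 0 to 14 calls, with 14 without FAET repeat 4 and 0 without FAET repeat 2, 3 or 5. Removing 4 ILF libraries with epithelial markers, an alternative chosen after seeing the data, left both counts as they were. Against TMM, scaling without dominant genes moved the median log2 fold change of all genes by 0.27 and RLE by 0.04. In all libraries this median also was -0.67 with the replicate block, -0.38 with DESeq2, -0.05 with limma-voom, -0.07 without a filter, 0 in mouse 1 and -1.18 in mouse 2, and with 1 library left out it ranged from -1.29 (without FAET repeat 1) to -0.04 (without VB repeat 5). Of 1038 values of 46 named genes under alternatives 1002 kept their direction and side of the threshold, and 21 turned sign. Reg3g became 0.12 with RLE and with DESeq2, 0.25 with scaling without dominant genes and with limma-voom, 0.46 in mouse 2 and, with 1 library left out, ranged from -0.52 to 0.20 (positive without VB repeat 4 or FAET repeat 1). Ccl25 became 0.32 in mouse 2, Cdkn1a -0.10 with limma-voom, Apoa4 -0.20, Serpinb6a -0.10 and Dnmt3a 0.31 in mouse 1. Apoa1 became -0.26 with FAET and VB only, -1.93 in mouse 1 and, with 1 library left out, ranged from -0.24 to 1.13 (negative without VB repeat 3, VB repeat 5 or FAET repeat 4). Jun ranged from -2.29 (without FAET repeat 4) to 2.996 and Klf4 from -1.21 to 1.15 (without VB repeat 4) with 1 library left out, and Klf4 became 0.19 with limma-voom and 0.0033 in mouse 2. Apart from the counts above, Slc34a2 (adjusted p = 0.241 in all libraries) and Dnmt3a (adjusted p = 0.654 in the 23), the replicate block changed no call. Of the list medians, 6 changed sign without FAET repeat 1 and VB repeat 5, 1 with RLE, 1 with scaling without dominant genes and 2 with the replicate block. The cause of these shifts was not tested. Depth limits genes with few UMIs most, and 2014 of 9956 genes had none in FAET.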

Other observations

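Paneth cell genes, which line the crypt base, were mixed between the segments. Of 11 tested, 6 were positive and 5 negative, with a median of 0.05, and 7 lay above the median of all genes and 4 below. The lectin Itln1 had 4, 6, 0, 5 and 0 UMIs in VB and none in FAET, at least 2.92-fold lower as a share of pooled UMIs, whereas the defensin gene model Gm14851 had none in VB and 5, 0, 0, 1 and 3 in FAET, at least 5.14-fold higher. Crypt stem and progenitor genes were split 8 to 8 around 0, with 10 above the median of all genes and 6 below. Their sum was 2.69 ± 1.96 UMIs per 10,000 in VB and 3.63 ± 3.13 in FAET (SD, n = 5). MHC class I genes summed to 38.2 ± 10.2 and 37.1 ± 15.0 UMIs per 10,000, and MHC class II genes to 20.4 to 38.7 in VB repeats 1 to 4 and 6.04 to 52.9 in FAET repeats 2 to 5, against 144 in VB repeat 5 and 114 in FAET repeat 1. Cell junction genes summed to 23.1 ± 12.7 in VB and 31.1 ± 16.8 in FAET, higher in FAET in 4 of 5 repeats, although 12 of 22 had a negative log2 fold change. Genes of protein folding in the endoplasmic reticulum summed to 18.8 ± 6.66 and 20.2 ± 5.40, while the chaperone Hspa5 had 47, 6, 33, 19 and 26 UMIs in VB and 20, 0, 0, 10 and 9 in FAET (log2 fold change -1.65, SE 1.09, edgeR, adjusted p = 0.520).

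Thegl, named after its values were seen, had no UMI in VB and 5 and 19 UMIs in FAET repeats 2 and 3, at least 13.7-fold higher as a share of pooled UMIs (edgeR, unadjusted p = 8.1e-05, adjusted p = 0.277). The same 2 FAET libraries, from different mice, held 33 and 53 of the 89 UMIs of Kitl in FAET.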
